A study of Mus musculus with 10 samples.

Results

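The Zfp genes are mouse genes named for the zinc finger proteins they encode. The 222 described here were the protein-coding genes whose symbol is Zfp followed by digits alone and whose mean over the 10 libraries was at least 2 FPKM (fragments scaled by transcript length and by the library's mapped total), out of 47632 genes in the deposited table. Zfp521 and Zfp36 were left out by the rule. The genes were thus chosen by a measured value, their mean level over all libraries, which is a description here and not a result. Of 363 protein-coding Zfp genes at any level, 63 more had a mean of 1 to 2 FPKM, and the rest were lower. Just above the minimum stood Zfp184 (2.03 FPKM), Zfp976 (2.08 FPKM) and Zfp438 (2.15 FPKM), and just below it Zfp786 (1.99 FPKM), Zfp442 (1.99 FPKM) and Zfp395 (1.90 FPKM). Both group means were at least 2 FPKM for 213 of the genes. In 8 the R6/2 mean alone reached that level, and in 1, Zfp438, the control mean alone did.

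Most of these proteins carry arrays of C2H2 zinc fingers, small folds in which cysteines and histidines hold a zinc ion and in which a few residues read the bases of DNA. A large share also carries a KRAB box, a short domain that binds the corepressor TRIM28 (KAP1) and through it brings in histone methylation and heterochromatin, best known for silencing retrotransposons. KRAB zinc finger genes arose by repeated duplication and lie in clusters along the chromosomes. In the adult brain many of them are transcribed at low levels, and few have a known neuronal function.

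RNA was sequenced from the striatum at 11 weeks of age, in 5 libraries of R6/2 hemizygous mice and 5 libraries of isogenic wild-type control mice. R6/2 mice model Huntington's disease: they carry the start of the human huntingtin gene with a long CAG repeat, under the human promoter, beside their own intact huntingtin genes, and are known for a rapid, early course. Whether every library stems from a separate animal is not given in the labels; p-values then measure only the spread between these libraries, part of which may be technical. Sequencing depth is unknown, since the table holds FPKM and not counts.

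Facts about the libraries bear on every value below. Mouse Htt stood at 16.5 ± 1.30 FPKM in R6/2 and 16.2 ± 0.697 FPKM in control libraries (SD, n = 5 each), which does not check the human transgene. Gm12695, the gene at the known R6/2 insertion site, had 0.699 to 2.34 FPKM in R6/2 libraries and 0 to 0.0688 FPKM in control libraries. The 12 markers of spiny projection neurons, the main neurons of the striatum, were present in every library, as the label says, but summed to 230 to 380.1 FPKM in R6/2 against 1797 to 2287 FPKM in control libraries, and all 12 fell. Myelin markers summed to 702 to 1084 FPKM in R6/2 against 1517 to 1703 FPKM in control libraries (5 of 8 fell), and astrocyte markers to 643 to 758 FPKM in R6/2 against 854 to 1066 FPKM in control libraries (3 of 8 fell). Microglial markers summed to 58.1 to 62.3 FPKM in R6/2 against 64.3 to 77.4 FPKM in control libraries (1 of 7 tested fell), with no call among 4 tested markers of oligodendrocyte precursors, 6 of endothelial cells or 4 of choroid plexus. The 4 markers of cortical neurons summed to 48.3 to 83.9 FPKM in R6/2 and 21.5 to 47.0 FPKM in control libraries. Protein-coding genes outside the mitochondrial genome totalled 193203 to 202906 FPKM in R6/2 and 211209 to 219426 FPKM in control libraries. Less RNA of a kind per cell and fewer cells of a type cannot be told apart in tissue RNA.

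Few Zfp genes passed the test. With limma on log2(FPKM + 1) over all 15905 genes that average 1 FPKM or more and a Benjamini-Hochberg adjusted p of 0.05, 10 of the 222 were higher in R6/2 and 3 were lower. That is 5.86% called, against 14.1% of all genes tested and 18.2% of the 10093 protein-coding genes that reach 2 FPKM (expressed protein-coding genes from here on). By direction, 4.50% of the Zfp genes were called higher, beside 5.00% of all genes tested and 6.62% of expressed protein-coding genes, and 1.35% were called lower, beside 9.11% and 11.6%. In this fit the share called higher is near the background. The genes that rose were Zfp367, Zfp655, Zfp65, Zfp52, Zfp30, Zfp90, Zfp719, Zfp369, Zfp760 and Zfp260, and those that fell were Zfp365, Zfp949 and Zfp180. Zfp52 and Zfp367 met the level rule through their R6/2 means alone, and without them 8 genes rose. In 9 genes every R6/2 library lay above every control library, and in 3 every one lay below, which is 5.41% of the Zfp genes beside 13.1% of all genes tested (4.50% above and 8.58% below) and 16.9% of expressed protein-coding genes (5.93% above and 10.9% below). Leaving out 1 library at a time gave 5 to 8 rises and 3 to 5 falls. Over all genes tested these fits gave 576 to 890 higher and 1193 to 1518 lower. The Zfp rises numbered 5 without R6/2 library 3 or control library 3 and 6 without R6/2 library 2. The Zfp falls numbered 5 without control library 5. At an unadjusted limma p under 0.05 there were 51 Zfp genes, of which 38 were higher and 13 lower. The matching share of all genes tested is not given here, so this split cannot be read as a trait of the Zfp genes.

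Across the 222 the changes were small and leaned upward. Their median log2 change, R6/2 minus control, was 0.10, beside 0.00103 over all genes tested and 0.0116 over expressed protein-coding genes. A value above 0 was seen in 147 of 222 (66.2%), beside 50.2% of all genes tested. The 8 genes that met the level rule through their R6/2 mean alone all lay above 0, as that choice favours. Among the 213 with both group means at 2 FPKM or more, 139 lay above 0 (65.3%), the median was 0.09, and 8 rose and 3 fell. These are descriptions, and no test was made of the list. The calls depended on how the libraries were scaled. With the protein-coding total made equal in all libraries, 30 Zfp genes were higher (20 with a KRAB box) and 3 lower, and under quantile normalization 14 were higher and 3 lower. Over all 15905 genes tested, calls toward higher levels went from 795 as reported to 1522 with this rescaling and 1111 under quantile normalization. The larger Zfp counts therefore cannot be read as a trait of the Zfp genes. In these settings calls toward lower levels made up 42.7% and 53.5% of all calls, against 64.6% as reported. The rescaling moved the median of all genes tested up to 0.0930, and the Zfp median less that median was 0.104, against 0.0977 as reported.

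The cortical marker signal differed between the groups, and most Zfp calls were lost with it in the model. As a mean of centred log2 values of the 4 markers, it was 0.135, 0.605, 0.844, 0.0921 and 0.167 in R6/2 libraries 1 to 5, and -0.736, -0.0512, -0.937, -0.0205 and -0.0998 in control libraries 1 to 5, so the groups did not overlap. Once this signal was a term of the model, 1 Zfp gene was higher (Zfp369) and 1 lower (Zfp365). Without control libraries 1 and 3 and R6/2 libraries 2 and 3, a setting chosen after seeing the data, the same pair was called. All genes tested gave 618 calls in the first of these settings and 563 in the second, against 2244 as reported. Both settings leave fewer degrees of freedom or fewer libraries. The Zfp median log2 change was 0.11 in each. The cortical signal also went with the group, at a mean of 0.369 in R6/2 and -0.369 in control libraries. The covariate fit thus separates signal and group poorly, and a call lost there need not mean a smaller change. With the covariate the called genes kept their direction, and the log2 changes ran from -0.91 in Zfp365 to 0.79 in Zfp367. What part the cortical signal has in the other 11 calls was not tested.

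The promoters of the 6 genes whose groups did not overlap and whose calls held when each library was left out are printed here. Each runs from 250 bases before to 50 bases after a RefSeq gene start on GRCm38.p6, 5′ to 3′ on the gene's strand, with matches to the searched motifs in capitals. The motifs were ETS (CCGGAAG), NRF1 (CGCATGCG), CRE (TGACGTCA), ZNF143 (ACTACAAT) and YY1 (AAGATGGC), each on both strands, and no matches overlapped in these 6. Zfp180 holds an ETS and a ZNF143 match, Zfp655 an ETS match and Zfp30 an NRF1 match. The other 3 hold none of these letters.
Zfp365 promoter (chr10:67912613-67912912, minus strand): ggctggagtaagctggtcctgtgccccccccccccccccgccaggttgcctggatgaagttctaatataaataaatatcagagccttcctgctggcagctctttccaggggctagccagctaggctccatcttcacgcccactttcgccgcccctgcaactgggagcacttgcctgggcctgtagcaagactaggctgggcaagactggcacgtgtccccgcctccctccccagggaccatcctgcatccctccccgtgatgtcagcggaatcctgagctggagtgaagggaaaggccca
Zfp949 promoter (chr9:88547770-88548069, plus strand): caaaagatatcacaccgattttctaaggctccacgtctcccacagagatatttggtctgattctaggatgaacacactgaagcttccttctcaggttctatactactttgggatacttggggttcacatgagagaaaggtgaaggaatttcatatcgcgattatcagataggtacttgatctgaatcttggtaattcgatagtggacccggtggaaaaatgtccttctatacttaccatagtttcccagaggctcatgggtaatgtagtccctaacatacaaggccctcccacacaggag
Zfp180 promoter (chr7:24081647-24081946, plus strand): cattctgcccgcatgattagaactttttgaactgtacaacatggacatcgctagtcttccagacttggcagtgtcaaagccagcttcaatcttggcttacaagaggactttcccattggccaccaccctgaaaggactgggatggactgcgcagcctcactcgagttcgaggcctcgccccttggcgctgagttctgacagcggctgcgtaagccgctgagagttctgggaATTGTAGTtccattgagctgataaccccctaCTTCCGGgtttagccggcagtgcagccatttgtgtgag
Zfp655 promoter (chr5:145231492-145231791, plus strand): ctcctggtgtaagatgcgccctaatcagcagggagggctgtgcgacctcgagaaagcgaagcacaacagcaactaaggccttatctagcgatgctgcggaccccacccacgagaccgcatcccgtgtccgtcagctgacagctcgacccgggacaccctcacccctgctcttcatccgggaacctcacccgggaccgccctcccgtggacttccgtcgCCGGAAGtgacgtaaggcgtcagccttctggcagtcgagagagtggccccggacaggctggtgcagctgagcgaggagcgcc
Zfp30 promoter (chr7:29783718-29784017, plus strand): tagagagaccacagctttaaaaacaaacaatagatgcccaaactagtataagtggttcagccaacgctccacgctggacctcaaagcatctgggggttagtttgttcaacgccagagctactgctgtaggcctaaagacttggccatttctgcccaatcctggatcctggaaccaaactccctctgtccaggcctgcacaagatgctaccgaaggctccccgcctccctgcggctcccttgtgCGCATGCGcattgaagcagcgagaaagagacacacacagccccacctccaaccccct
Zfp760 promoter (chr17:21707491-21707790, plus strand): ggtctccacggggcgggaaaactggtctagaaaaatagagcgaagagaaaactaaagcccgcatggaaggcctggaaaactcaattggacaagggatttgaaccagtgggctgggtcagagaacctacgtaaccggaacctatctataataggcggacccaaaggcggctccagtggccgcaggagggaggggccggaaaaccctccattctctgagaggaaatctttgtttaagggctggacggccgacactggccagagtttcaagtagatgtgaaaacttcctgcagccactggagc

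Among the Zfp genes that matched RefSeq, 185 genes with 228 promoters, the ETS letters stood in 20.2% of promoters, beside 8.86% of all 32851 promoters and 17.3% of the 10480 promoters of expressed protein-coding genes. The share was 25.6% of the 125 promoters of genes with a KRAB box and 13.6% of the 103 promoters of genes without one. The ZNF143 letters stood in 4.39% of Zfp promoters (6.4% with and 1.94% without a KRAB box), 0.737% of all promoters and 1.09% of those of the expressed protein-coding genes. NRF1 letters stood in 3.2% of promoters of KRAB genes and 7.77% of those of genes without a KRAB box, beside 1.87% of all promoters and 3.83% in the expressed protein-coding genes. YY1 letters stood in 6.14% of Zfp promoters, 2.75% of all promoters and 4.63% of the expressed ones, and CRE letters in 3.07%, 1.79% and 3.23%. KRAB promoters held a median of 12 CpG sites and 53.3% GC, against 21 CpG sites and 61.7% GC in Zfp promoters without a KRAB box and 21 and 61.3% in the expressed protein-coding genes. A match is a description of the letters and was not tied to any change in level.

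Zfp365, the most abundant of the 222 by mean FPKM, had the firmest fall. It encodes a coiled-coil protein also known as DBZ, a partner of DISC1 with roles in neurite growth and at the centrosome, and lies at chr10:67886103-67912662 on the minus strand. No C2H2 finger of the standard spacing and no KRAB box were found in it. R6/2 libraries 1 to 5 had 81.6, 104, 97.2, 95.5 and 85.2 FPKM, against 153, 153, 149.5, 159 and 181 FPKM in control libraries 1 to 5. The highest R6/2 library was well below the lowest control library. The log2 change was -0.77 (SE 0.0868, limma adjusted p = 0.000343), and the adjusted p stayed between 0.000199 and 0.0180 in every alternative fitted.

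Zfp949 and Zfp180 were the other genes that fell. Zfp949 (chr9:88548020-88571061, plus strand) encodes 11 fingers and a KRAB box. It had 10.2, 10.7, 10.7, 10.1 and 13.1 FPKM in R6/2 libraries, against 24.5, 14.7, 18.04, 17.0 and 16.9 FPKM in control libraries. The groups did not overlap, though R6/2 library 5 came close to control library 2, and control library 1 was the highest by far. Its log2 change was -0.67 (SE 0.130, limma adjusted p = 0.00791). Zfp180 (chr7:24081924-24107713, plus strand), with 12 fingers and no KRAB box found, had 5.43, 6.66, 5.71, 4.91 and 7.49 FPKM in R6/2 libraries, against 10.7, 9.24, 9.85, 9.82 and 8.74 FPKM in control libraries. No R6/2 library reached the lowest control, and its log2 change was -0.61 (SE 0.107, limma adjusted p = 0.00468). With the cortical signal as a covariate both calls were lost, at log2 changes of -0.47 for Zfp949 (limma adjusted p = 0.229) and -0.57 for Zfp180 (limma adjusted p = 0.112).

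Zfp655 gave the clearest rise. Its human counterpart, VIK, was named for binding the signalling protein VAV, and the mouse gene (chr5:145231715-145247302, plus strand) encodes 6 fingers and a KRAB box. R6/2 libraries had 9.62, 12.5, 10.1, 13.3 and 14.3 FPKM, against 6.39, 6.44, 5.13, 6.46 and 6.75 FPKM in control libraries. Every R6/2 library lay above the highest control, and control library 3 lay below the 4 other controls, which were close together. The log2 change was 0.83 (SE 0.120, limma adjusted p = 0.00146), or a fold of group means of 1.92. After adding the cortical signal as a covariate, the log2 change was 0.79 and the limma adjusted p 0.0522.

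Zfp30, Zfp760 and Zfp260 also kept their calls whichever library was left out. Zfp30 (chr7:29783998-29794702, plus strand), a KRAB gene with 12 fingers that has been linked in mice to the neutrophil chemokine CXCL1 in airway, had 4.13, 4.10, 4.96, 3.82 and 2.56 FPKM in R6/2 libraries, against 2.54, 1.73, 2.01, 1.99 and 2.17 FPKM in control libraries. Its groups barely separated, since R6/2 library 5 and control library 1 nearly met. The log2 change was 0.66 (SE 0.142, limma adjusted p = 0.0137). With the replicate number as a term of the model the Zfp30 call was lost (limma adjusted p = 0.0573). Zfp760 (chr17:21707741-21725636, plus strand), a KRAB gene with 16 fingers, had 3.81, 4.55, 4.30, 4.37 and 4.91 FPKM in R6/2 libraries, against 3.07, 3.14, 2.45, 2.85 and 3.04 FPKM in control libraries. The 2 sets were tight and apart, with a log2 change of 0.46 (SE 0.0884, limma adjusted p = 0.00728). Zfp260 (chr7:30094777-30107622, plus strand), known as a partner of GATA4 in heart muscle, has 12 fingers, with no KRAB box found. It had 18.3, 22.1, 21.7, 20.0 and 21.2 FPKM in R6/2 libraries, against 13.1, 15.2, 14.8, 15.2 and 18.4 FPKM in control libraries. R6/2 library 1 lay just under control library 5, so its groups overlapped, and the log2 change was 0.41 (SE 0.0937, limma adjusted p = 0.0170). With the cortical signal as a covariate the log2 change was 0.58 for Zfp30 (limma adjusted p = 0.225), 0.39 for Zfp760 (limma adjusted p = 0.177) and 0.25 for Zfp260 (limma adjusted p = 0.372).

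The remaining 6 genes that rose lost their calls in 7 to 9 of the 10 fits that left out 1 library, with limma adjusted p up to 0.103. Zfp719 (chr7:43579610-43593235, plus strand), the most abundant of the genes that rose, had 29.3, 27.0, 38.7, 33.3 and 34.5 FPKM in R6/2 libraries, against 21.4, 25.5, 25.3, 17.7 and 26.2 FPKM in control libraries. R6/2 library 2 lay only just above control library 5, and the log2 change was 0.47 (limma adjusted p = 0.0401). Zfp90, a KRAB gene whose human counterpart is reported to bind the regulatory T cell factor FOXP3, had 2.44, 4.19, 3.15, 4.42 and 2.67 FPKM in R6/2 libraries, against 1.76, 2.31, 2.17, 2.02 and 1.78 FPKM in control libraries. Its exons overlap the noncoding gene Gm26786 on the other strand, and its log2 change was 0.52 (limma adjusted p = 0.0425).

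Zfp369 (NRIF2), one of a pair of KRAB proteins that bind the neurotrophin receptor p75, had 13.6, 15.2, 11.8, 13.6 and 15.7 FPKM in R6/2 libraries, against 11.3, 8.62, 12.5, 8.48 and 8.66 FPKM in control libraries. Its groups overlapped, and the log2 change was 0.47 (limma adjusted p = 0.0350). It was the rise still called with the cortical signal as a covariate, at a log2 change of 0.78 with a limma adjusted p of 0.0145, and the limma adjusted p of 7 of the 10 fits that left out 1 library was above 0.05. Its paralog Zfp110 (NRIF1) had 2.61 ± 0.376 FPKM in R6/2 and 2.78 ± 1.15 FPKM in control libraries (SD, n = 5 each; log2 change -0.03, limma adjusted p = 0.946), with 4.80 FPKM in control library 1 and at most 2.53 FPKM in the other controls. That sign turned with the cortical signal as a covariate, under rescaling and under quantile normalization.

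Zfp52, Zfp65 and Zfp367 were called with groups that overlapped and were named after their values were seen. Zfp52 had 2.24, 2.51, 2.97, 3.33 and 4.42 FPKM in R6/2 libraries, against 0.949, 1.26, 1.34, 1.93 and 2.26 FPKM in control libraries (log2 change 0.68, limma adjusted p = 0.0370), and its exons overlap a noncoding gene on the other strand. Zfp65 had 4.47, 6.09, 5.83, 4.08 and 4.47 FPKM in R6/2 libraries, against 1.52, 4.14, 2.93, 2.76 and 1.96 FPKM in control libraries (log2 change 0.74, limma adjusted p = 0.0305). Zfp367, which encodes 2 fingers and whose human counterpart was described as an activator of erythroid genes, had 2.96, 2.35, 4.24, 1.36 and 6.91 FPKM in R6/2 libraries, against 0.905, 0.7099, 0.666, 1.58 and 1.37 FPKM in control libraries. It had the highest log2 change of the 222, 1.06 (limma adjusted p = 0.0451), and the widest R6/2 range, relative to its mean, of the 10 genes that rose. The gene model Gm47513 overlaps its exons on the other strand. Zfp52 and Zfp367 entered the list through their R6/2 means, since their control means were below 2 FPKM.

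**Figure D1:**
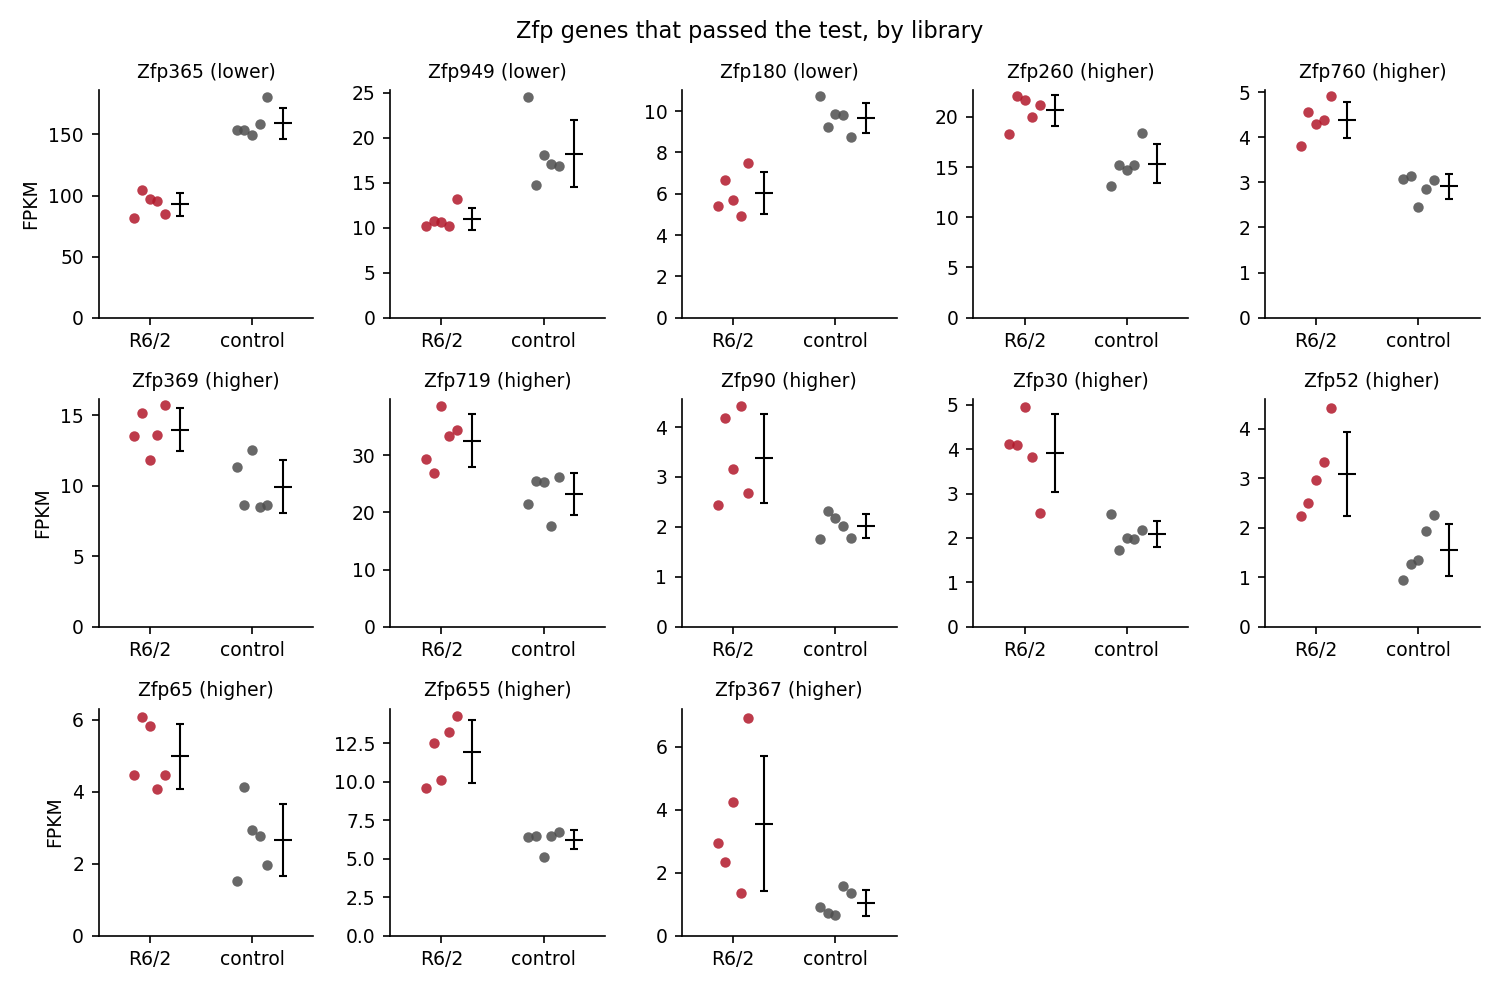
FPKM of each of the 13 Zfp genes that passed the test, with R6/2 libraries left of control libraries; points are libraries, and the bar beside them is the mean with its SD (n = 5 each). Zfp365 shows the widest gap among the genes that fell, with R6/2 libraries at 81.6 to 104 FPKM, and among the genes that rose Zfp367 has the widest scatter relative to its mean.

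A KRAB box was found in 121 of the 222 and not in 101, with a profile search of the translated transcripts. The profile was built from matches to a fixed pattern, so boxes unlike that pattern may be missed. Throughout, genes without a KRAB box are those in which this search found none. Of the 121, 8 rose and 1 fell, the median log2 change was 0.14, and 89 (73.6%) lay above 0, beside 51.6% of expressed protein-coding genes. The share that rose, 6.61%, is at the background of 6.62% of expressed protein-coding genes. Of the 101, 2 rose and 2 fell (1.98% each), the median was 0.03, and 58 (57.4%) lay above 0. The difference between these sets was not tested. It was seen in each range of level: at 2 to 5 FPKM the median was 0.16 in 63 KRAB genes and 0.10 in 39 others, at 5 to 10 FPKM 0.15 in 38 and 0.04 in 32, and at 10 FPKM or more 0.10 in 20 and -0.02 in 30. The lowest range holds the 8 genes that met the level rule through their R6/2 mean alone, all above 0. Zfp52, which has a KRAB box, and Zfp367, in which none was found, are among them. The split by KRAB box was not repeated without these genes. By number of fingers the median was 0.06 for 0 to 3 fingers (29 genes), 0.05 for 4 to 9 (64 genes), 0.14 for 10 to 14 (82 genes) and 0.11 for 15 or more (47 genes).

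**Figure D2:**
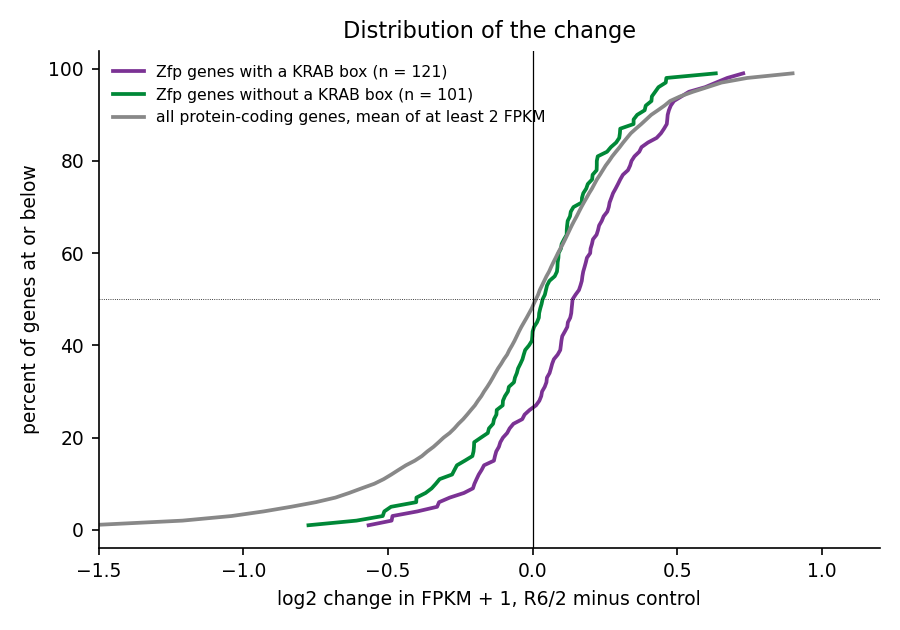
Percent of genes at or below each log2 change in FPKM + 1, R6/2 minus control, for Zfp genes with a KRAB box (n = 121), Zfp genes without one (n = 101) and all expressed protein-coding genes (2 FPKM or more). The KRAB curve crosses 50% at 0.14 and lies to the right of the protein-coding curve up to that point, while the curve of genes without a KRAB box crosses at 0.03.

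By library, the KRAB genes held a narrow level in R6/2. Their median log2 deviation from the control mean was 0.138, 0.139, 0.148, 0.137 and 0.141 in R6/2 libraries 1 to 5. In control libraries 1 to 5 it was -0.0245, -0.0188, -0.0201, -0.0361 and 0.121. Control library 5 lay next to the R6/2 libraries and apart from the 4 other controls, and it also had the highest mitochondrial share of FPKM (33.8%) among the 10 libraries. In genes without a KRAB box the medians ran from -0.0186 to 0.0842 in R6/2 and from -0.0475 to 0.0441 in control libraries, so these overlapped. All protein-coding genes ran from -0.00746 to 0.0104 in R6/2 and from -0.00855 to 0.0175 in control libraries.

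**Figure D3:**
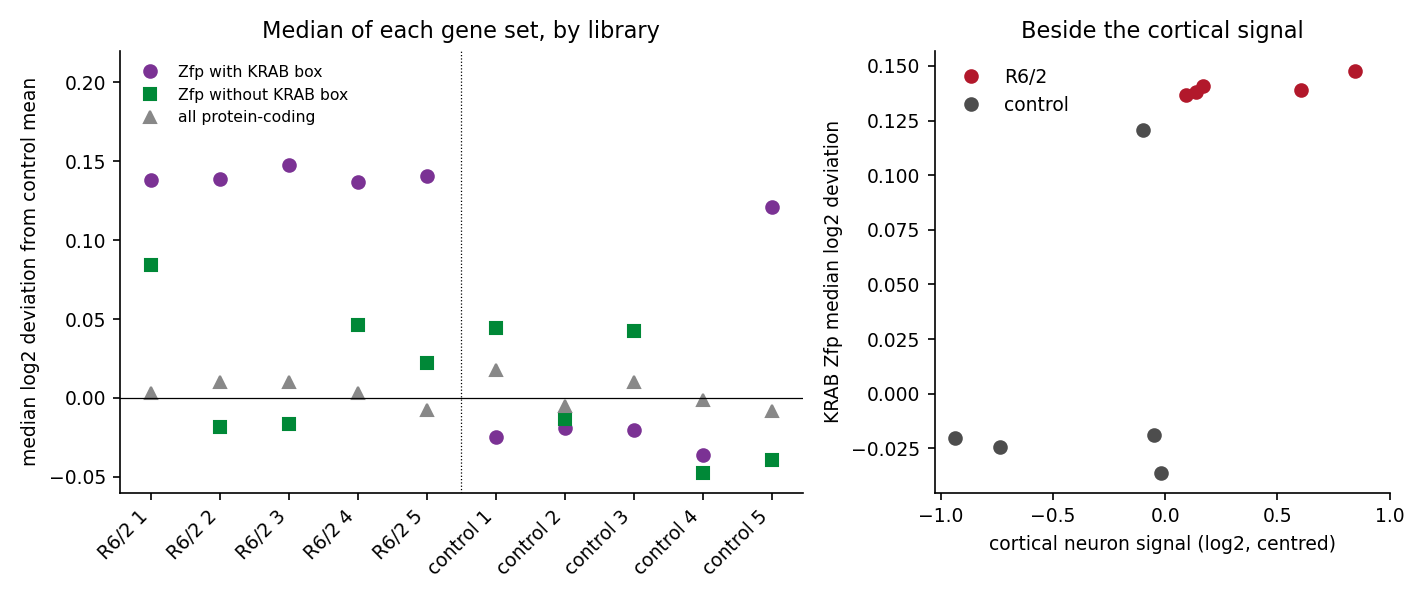
Left, the median log2 deviation from the control mean in each library for Zfp genes with a KRAB box, Zfp genes without one and all protein-coding genes; right, the KRAB median of each library against its cortical neuron signal. R6/2 libraries lie at 0.137 to 0.148 over cortical signals of 0.0921 to 0.844, and control library 5 lies at 0.121.

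Summed over the 222, Zfp transcripts stood at 2061 ± 13.0 FPKM in R6/2 libraries and 2061 ± 81.9 FPKM in control libraries (SD, n = 5 each). As a share of the protein-coding total this was 1.04 ± 0.0246% in R6/2 and 0.958 ± 0.0235% in control libraries, and the ranges, 1.01 to 1.07% in R6/2 and 0.930 to 0.995% in control libraries, did not overlap. The sum itself did not separate the groups, and the protein-coding total was lower in R6/2 libraries. Within the sum, Zfp365 alone averaged 92.8 FPKM in R6/2 and 159 FPKM in control libraries. What the change in share owes to the total or to single genes was not tested.

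The 4 next most abundant Zfp genes did not pass the test as reported. Zfp207 (BuGZ), which loads the checkpoint protein BUB3 at kinetochores, averaged 99.7 ± 10.7 FPKM in R6/2 and 87.3 ± 5.52 FPKM in control libraries (SD, n = 5 each, log2 change 0.19, limma adjusted p = 0.198). It was called higher with protein-coding genes rescaled (log2 change 0.30, limma adjusted p = 0.0484) and under quantile normalization (log2 change 0.32, limma adjusted p = 0.0378). Zfp644, whose human counterpart works with the histone methyltransferases G9a and GLP, averaged 66.4 ± 11.1 FPKM in R6/2 and 79.7 ± 8.28 FPKM in control libraries (log2 change -0.27, limma adjusted p = 0.201). Zfp638 (NP220), known in human cells for silencing unintegrated retroviral DNA with the HUSH complex, averaged 54.3 ± 2.95 FPKM in R6/2 and 55.0 ± 10.9 FPKM in control libraries (limma adjusted p = 1.0), and control library 5 held the highest value, 72.3 FPKM. Zfp106, an RNA-binding protein that motor neurons and muscle need in mice, averaged 45.6 ± 8.67 FPKM in R6/2 and 59.4 ± 17.3 FPKM in control libraries (log2 change -0.33, limma adjusted p = 0.408). Control library 5 had 31.0 FPKM of Zfp106 and the other controls 61.96 to 78.4 FPKM; without that library Zfp106 was called lower (limma adjusted p = 0.0394). Exons of Zfp644 overlap another gene on its own strand and those of Zfp106 a noncoding gene on the other strand, so their values may hold reads of both.

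**Figure D4:**
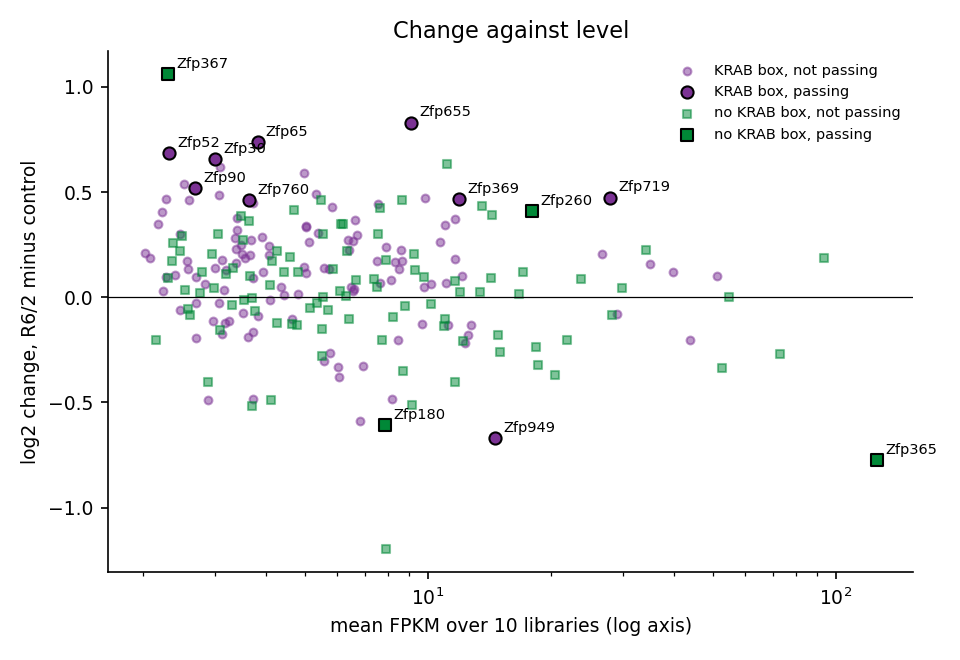
Log2 change, R6/2 minus control, of each of the 222 Zfp genes against its mean FPKM over the 10 libraries (log axis), by KRAB box and by whether it passed the test. Zfp365 stands alone at high level and low change (-0.77), and 6 of the 10 genes that rose have a mean of 2 to 5 FPKM.

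Among the Zfp genes listed for roles in chromatin and imprinting, no call was made. Zfp445, a KRAB protein that maintains imprints, averaged 11.7 ± 1.47 FPKM in R6/2 and 13.4 ± 1.82 FPKM in control libraries (log2 change -0.18, limma adjusted p = 0.355). Zfp809, which silences murine leukaemia proviruses through their primer binding site, averaged 4.46 ± 1.05 FPKM in R6/2 and 4.84 ± 0.957 FPKM in control libraries (log2 change -0.10, limma adjusted p = 0.736). Zfp462, a factor in heterochromatin and pluripotency, averaged 17.5 ± 3.94 FPKM in R6/2 and 23.5 ± 7.79 FPKM in control libraries (log2 change -0.37, limma adjusted p = 0.337). The sign for Zfp809 and Zfp462 turned with the cortical signal as a covariate. The imprinting factor Zfp57, at 1.75 FPKM, and Zfp568, at 0.628 FPKM, were below the level rule, as were Zfp503, Zfp703, Zfp395, Zfp189 and Zfp488, which had been listed for their roles.

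The genes below, listed for roles in neural development and in protein control, also gave no call as reported. Zfp365 and Zfp369, listed for their roles as well, were called and are described above. Zfp423, a partner of EBF factors needed for the cerebellum, averaged 5.54 ± 1.98 FPKM in R6/2 and 3.83 ± 1.12 FPKM in control libraries (log2 change 0.41, limma adjusted p = 0.289). Zfp536, a repressor of neuronal differentiation, averaged 7.62 ± 2.04 FPKM in R6/2 and 9.81 ± 1.69 FPKM in control libraries (log2 change -0.35, limma adjusted p = 0.252). Zfp292, a large transcription factor, averaged 9.97 ± 0.489 FPKM in R6/2 and 8.55 ± 1.07 FPKM in control libraries (log2 change 0.21, limma adjusted p = 0.153), and it was called higher without control library 5 (limma adjusted p = 0.0369) and with protein-coding genes rescaled (limma adjusted p = 0.0267). Zfp335, needed for neural progenitors, averaged 2.56 ± 0.471 FPKM in R6/2 and 2.16 ± 0.332 FPKM in control libraries (log2 change 0.17, limma adjusted p = 0.427). Zfp91, an atypical ubiquitin ligase, stood at a log2 change of -0.18 (limma adjusted p = 0.201), and Zfp598, the ubiquitin ligase of collided ribosomes, one of -0.01 (limma adjusted p = 0.967). Exons of Zfp335 overlap other genes on the opposite strand, and those of Zfp91 overlap Cntf on its own strand.

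Genomic clusters differed in where their members lay. The 222 lay on 20 chromosomes, with 58 on chromosome 7. Taking as a cluster the Zfp genes whose starts lie within 200 kb of the next, 127 were clustered (median log2 change 0.10) and 95 stood alone (0.10). On chromosome 17 the cluster at chr17:21383748-22456689 held 10 of the 222, all with a KRAB box. Zfp52 and Zfp760 rose there, 9 of 10 lay above 0 and the median was 0.37. Zfp52 met the level rule through its R6/2 mean alone. Of the 222, 66.2% lay above 0 and 4.50% rose, and of those with a KRAB box 73.6% and 6.61%. The cluster at chr7:29768552-30169750, with Zfp30 and Zfp260, held 11, of which 8 lay above 0 (median 0.17). The cluster at chr13:67038596-67827002, with Zfp65, held 8, of which 7 lay above 0 (median 0.13), and all 5 of the cluster at chr9:20345136-20605409 lay above 0 (median 0.14) with none called.

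Other clusters leaned the opposite way. At chr7:24081924-24316666, where Zfp180 fell, 4 of 9 lay above 0 and the median was -0.08. At chr17:32765496-33110705, 1 of 5 lay above 0 and the median was -0.09, with none called. The clusters were read from the annotation, and the differences between them were not tested. Neighbouring KRAB genes can be near-identical copies between which reads are divided, so values within a cluster are not independent.

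**Figure D5:**
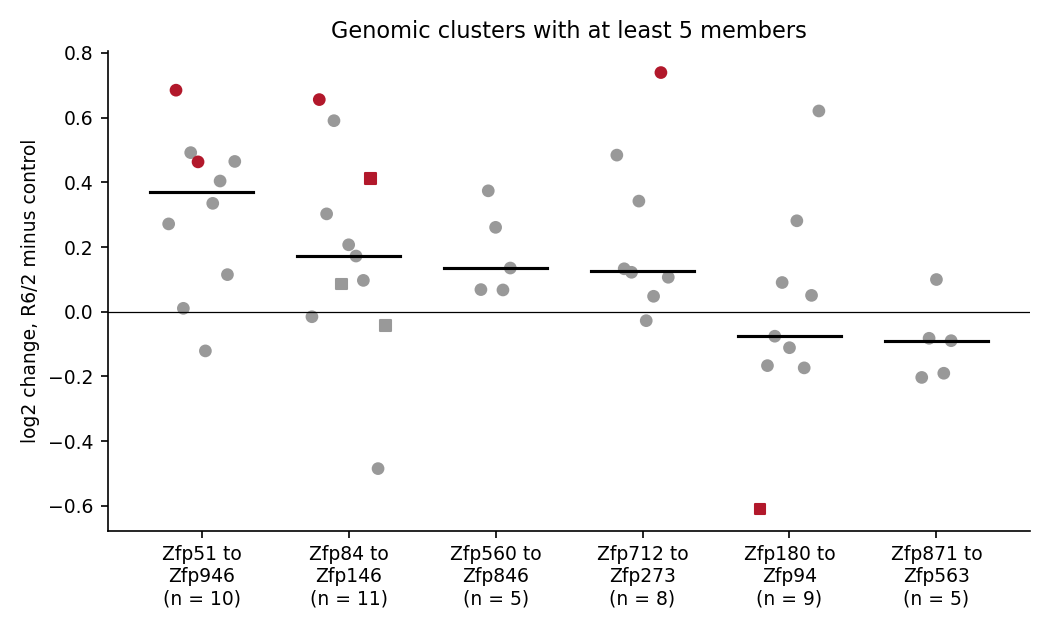
Log2 change, R6/2 minus control, of the members of the 6 genomic clusters with at least 5 of the 222 Zfp genes, in genomic order within each cluster; circles have a KRAB box, squares have none, red marks genes that passed the test and the line is the median. Medians run from 0.37 in the chromosome 17 cluster that holds Zfp760 down to -0.09 in the other chromosome 17 cluster.

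The genes that work with KRAB proteins were called about as often as other genes. Of 24 genes of the KAP1 silencing machinery, 22 were tested, 2 rose and 2 fell. That is 18.2% called, beside 14.1% of all genes tested (5.00% higher and 9.11% lower) and 18.2% of expressed protein-coding genes, with a median log2 change of 0.07. Trim28, the corepressor that KRAB boxes bind, averaged 69.3 ± 7.06 FPKM in R6/2 and 62.6 ± 11.2 FPKM in control libraries (SD, n = 5 each, log2 change 0.16, limma adjusted p = 0.490), and Setdb1, its histone methyltransferase, averaged 4.24 ± 0.551 FPKM in R6/2 and 5.20 ± 0.413 FPKM in control libraries (log2 change -0.24, limma adjusted p = 0.120). Chd3 and Chd4 encode alternative remodelling subunits of the NuRD complex. Chd3 rose to 49.5 ± 4.65 FPKM in R6/2, against 31.6 ± 1.49 FPKM in control libraries (log2 change 0.63, limma adjusted p = 0.000644), while Chd4 fell to 27.7 ± 2.20 FPKM in R6/2, against 35.2 ± 2.32 FPKM in control libraries (log2 change -0.34, limma adjusted p = 0.0168). The histone methyltransferase gene Suv39h1 rose (4.32 ± 0.618 FPKM in R6/2 and 2.49 ± 0.331 FPKM in control libraries, limma adjusted p = 0.00564), and the DNA methyltransferase gene Dnmt3a fell (31.0 ± 2.66 FPKM in R6/2 and 40.2 ± 3.82 FPKM in control libraries, limma adjusted p = 0.0245).

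In related families at the same level the shares called were near the 14.1% of all genes tested or rested on few genes. Of 21 genes named Zfp with digits and a letter, none rose and 3 fell, namely Zfp385b, Zfp36l1 and Zfp385a (14.3% called), with a median log2 change of 0.02. Zfp385b averaged 22.3 ± 2.63 FPKM in R6/2 and 40.8 ± 3.22 FPKM in control libraries (log2 change -0.85, limma adjusted p = 0.000324). Among 8 Zkscan genes Zkscan3 fell (12.5%, median 0.15), among 6 Zscan genes none was called (median 0.25, with all 6 above 0), and among 23 Zbtb genes Zbtb33 rose and Zbtb7a and Zbtb10 fell (13.0%, median -0.17).

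The spread between libraries varied widely among the Zfp genes. The median coefficient of variation of the 222 was 17.9% in R6/2 and 19.7% in control libraries. It was lowest for Zfp788 in R6/2 (2.21%), at 28.0 to 29.4 FPKM there and 22.8 to 26.7 FPKM in control libraries. Its groups did not overlap, and with a log2 change of 0.20 it missed the threshold (limma adjusted p = 0.0651). Zfp771 had the lowest log2 change of all, -1.20, and was not called (limma adjusted p = 0.233). It had 5.07, 2.26, 7.95, 2.90 and 1.55 FPKM in R6/2 libraries, against 1.32, 15.7, 21.6, 10.1 and 10.5 FPKM in control libraries, so control library 1 lay below every R6/2 library. Zfp618 was the most uneven gene, with 13.6 FPKM in R6/2 library 1 and 9.53 FPKM in control library 2, and 0.447 to 1.19 FPKM in the 8 others. These 3 genes were picked after their values were seen.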

How the data were processed

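The authors deposited 1 table of FPKM values for 10 striatal libraries and 47632 genes; 0 columns of per-sample values lacked a sample. GRCm38, STAR 2.4.0, Cuffdiff and Cufflinks are named in the submitters' processing notes; no source used here gives the annotation release or the strand setting. FPKM are not counts, so depth is unknown and no counting interval can be given. Of the gene IDs, 47220 were matched to GENCODE M21 symbols (39102 in version). Genes averaging 1 FPKM or more entered a limma fit (version 3.58.1, R 4.3.3) of log2(FPKM + 1), moderated by empirical Bayes with a trend in the variance, two-sided, R6/2 minus control, and Benjamini-Hochberg adjustment over all genes; log2 changes on this scale understate those of low genes. The model was tested on simulated data.

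KRAB boxes were found with a profile of 104 sequences of 36 residues (pyhmmer 0.12.3, E-value under 1e-05) over translated GENCODE transcripts, and C2H2 fingers by pattern in the longest. Exons of 65 of the 222 genes overlap another gene, in 53 on the other strand.

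The members and the lists were chosen with earlier results of these data known. Named genes are called genes without overlap between groups (at most 12 in each direction), the 5 with the highest mean, 22 listed for their roles where they met the rule, and genes beside the level minimum; Zfp260, Zfp52, Zfp65, Zfp367, Zfp788, Zfp771, Zfp618 and the named genes of related families were picked once their values had been seen. The alternatives were another pseudocount, filter, scaling, trend or member rule, the replicate number or cortical signal as a term, and libraries left out.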

Additional observations from a re-analysis of the deposited data

Results flagged for a closer look

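Of 54 groups of 5 libraries examined for the named genes, 3 held a library far from the 4 others, and chance flags about 1 group in 20. Zfp949 had 13.1 FPKM in R6/2 library 5, with the next R6/2 library at 10.7 FPKM. Zfp655 had 5.13 FPKM in control library 3, with the next control library at 6.39 FPKM. Zfp110 had 4.80 FPKM in control library 1, with the next control library at 2.53 FPKM. The calls of Zfp949 and Zfp655 held without these libraries.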

How the results depend on the processing

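Zfp365 kept its call in every alternative fitted. With the cortical signal as a covariate the Zfp genes gave 1 rise and 1 fall, and all genes 112 and 506; without control libraries 1 and 3 and R6/2 libraries 2 and 3, chosen after seeing the data, these were 1 and 1, and 106 and 457. The count of rises was 5 of 120 members with a minimum mean of 5 FPKM tested (all genes 647 of 9015). It was 4 of 222 with no filter (all genes 454 of 47632) and 30 of 222 with protein-coding genes rescaled (all genes 1522 of 15905). When members had to average 5 FPKM or more, it was 4 of 120. The Zfp median less that of all genes was 0.0595 with a pseudocount of 5 FPKM. Same-numbered libraries did not deviate together (correlations of -0.0528 to 0.0495, with 1 of 5 numbers matched best by its own). Correlations this near 0 cannot show whether the numbers pair the libraries. With the replicate block there were 5 rises and 3 falls (all genes 370 higher). Leaving out 1 library gave 5 to 8 rises and 3 to 5 falls. The signs of some uncalled genes turned. Zfp638 was -0.0249 with the cortical signal, -0.000980 with a pseudocount of 5 FPKM, -0.0231 without the 4 libraries and -0.0480 to 0.103 with 1 library left out. Zfp809 was 0.119 with the cortical signal, 0.109 without the 4 libraries and -0.182 to 0.0145 with 1 left out. Zfp462 was 0.0978 with the cortical signal. Zfp110 was 0.211 with the cortical signal, 0.0537 rescaled, 0.00855 under quantile normalization, 0.168 without the 4 libraries and -0.115 to 0.136 with 1 left out, and Zfp598 was 0.0316, 0.0774, 0.0219, 0.0128 and -0.0796 to 0.0436 in the same settings. The cause was not tested. Depth is unknown, so what it limits cannot be given.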
